A study of Mus musculus with 4 samples.

Results

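Ras and Rap are small GTPases that pass signals from surface receptors into the cell. Guanine nucleotide exchange factors (GEFs) load them with GTP and switch them on, and GTPase-activating proteins (GAPs) speed up GTP hydrolysis and switch them off. In developing T cells, signals from the pre-T-cell receptor reach Ras through diacylglycerol-dependent RasGRP proteins and through Sos, whereas Rap is best known for the control of integrin adhesion. The genes described here were chosen by name. They are 10 of the 24391 genes counted, namely the RasGAP genes Rasal1, Rasal3, Rasa1, Rasa2 and Rasa3 and the GEF genes Rasgrp1, Rasgrp2, Rapgef1, Rapgef2 and Rapgef6. The data are 4 RNA-Seq libraries of Beko cells, a mouse leukemia line of pre-T cells in which Notch is constitutively active. In the GSI group (2 libraries) the cells were kept for 48 h in DAPT, a γ-secretase inhibitor that blocks the release of the active Notch fragment. In the washout group (2 libraries) cells treated for the same 48 h were washed and cultured for another 24 h without inhibitor, so that Notch could be cleaved again. The labels give the DAPT dose as 10 mg/ml, whereas the methods of the study state the same figure in μg/ml. The comparison asks which transcripts respond when Notch is switched back on. Untreated cells were not analysed here, and effects of the additional wash and of the longer culture cannot be told apart from the loss of the inhibitor. All libraries come from a single cell line.

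Upon washout of GSI, Rasal1 was upregulated 3.03-fold and Rasgrp1, the diacylglycerol-dependent Ras GEF of thymocytes, was downregulated 5.55-fold. The RasGAP transcript Rasal3 fell to 0.515 times its GSI level and Rasa3 to 0.662 times, and Rapgef2 rose 1.44-fold. Genes were called deregulated when edgeR's quasi-likelihood test gave an adjusted p under 0.05 and the log2 fold change lay above 1 or below -1, the thresholds of the study. Of the 10 genes, all of which passed the filter on low counts, 1 was called higher and 1 lower. Among all 12266 genes tested 7.74% were called higher, 11.7% lower and 19.5% in either direction, so the 2 calls among the 10 genes are close to the background. With the adjusted p alone, 2 were higher (Rasal1 and Rapgef2) and 5 lower (Rasal3, Rasa1, Rasa3, Rasgrp1 and Rasgrp2), where 27.0% of all genes were higher, 25.4% lower and 52.5% either. DESeq2 at the adjusted p alone gave 2 higher and 4 lower, against 43.2% of the genes it tested in either direction. At the adjusted p alone edgeR gave 1 higher and 3 lower without GSI replicate 1, 1 and 4 without GSI replicate 2, 3 and 4 without washout replicate 1, and 1 and 4 without washout replicate 2. The libraries of both groups did not overlap for 3 genes that were higher and 6 that were lower upon washout. Across all genes tested that was so for 38.2% in the higher direction, 39.1% in the lower and 77.3% in either. The median log2 fold change of the 10 genes was -0.28, and that of all genes tested was -0.01.

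**Figure D1:**
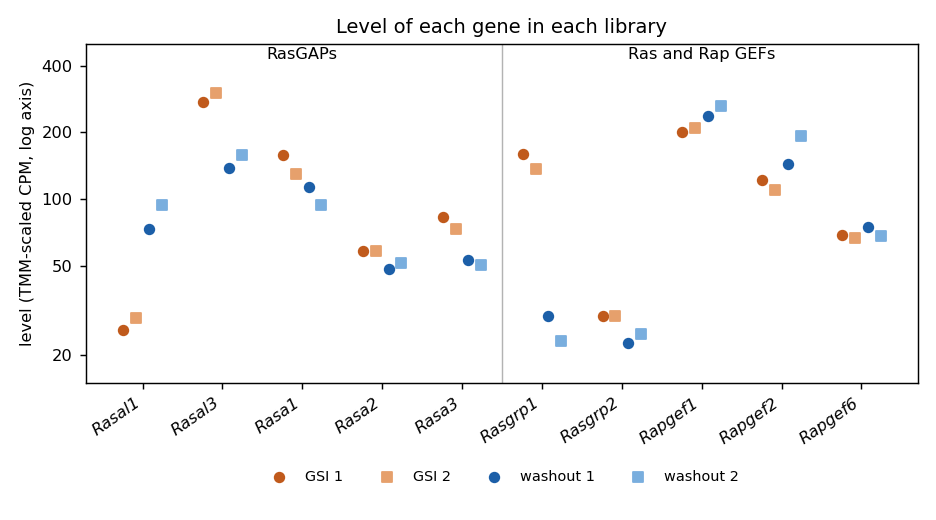
Level of each of the 10 genes in each of the 4 libraries, in CPM (counts scaled to the library size and its TMM factor) on a log axis, RasGAP genes on the left and GEF genes on the right. Each point is 1 library (GSI in orange, washout in blue, replicate 1 as a circle and replicate 2 as a square). Rasal1 lies between 25.8 and 29.4 CPM under GSI and between 73.6 and 93.9 CPM after washout, Rasgrp1 drops from 159.9 and 137 to 30.0 and 23.1 CPM, and only Rapgef6 has overlapping groups.

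Genes held between 13716199 and 36364200 counts in each library. Counts of the 10 genes ranged from 311 to 8789 per library, so the counting error of 1 value was at most 5.67%, and 3 counts correspond to between 0.0881 and 0.223 CPM. Such limits cover counting error only. The Notch targets Hes1, Hey1, Dtx1, Il2ra and Ptcra, used as a check of the labels, were called higher upon washout with log2 fold changes between 1.42 and 3.47, and Notch3 was not (0.14). All 10 T progenitor markers examined were expressed, with summed levels of 5856 and 6323 CPM under GSI and 6043 and 5887 CPM after washout. Rag1 was the largest part of that sum, with means of 2066 CPM under GSI and 2661 CPM after washout. Ptcra was called higher (2.37) and Gata3 lower (-1.67). At edgeR's adjusted p alone Cd3g (0.86) was also higher, and Tcf7 (-0.87), Bcl11b (-0.72) and Thy1 (-0.58) were lower. The sum thus covers changes in both directions. B cell markers summed to 0.531 and 0.548 CPM against 0.323 and 0.223 CPM, with Ms4a1, Pax5 and Ebf1 at 0. Of the 5 mast cell markers Cpa3 was called lower and Hdc was not tested, while Fcer1a, Cma1 and Tpsb2 were at 0. Their summed level was 176 and 77.6 CPM under GSI against 9.34 and 2.23 CPM after washout. Nearly all of it was Cpa3, at 176 and 77.4 against 9.34 and 2.23 CPM. Of the 5 myeloid markers Itgam was called lower, and Lyz2 and Cebpa were at 0, with sums of 49.1 and 38.2 against 5.49 and 4.91 CPM. Itgam alone had 48.7 and 37.9 against 5.38 and 4.76 CPM. Erythroid markers summed to 12.0 and 10.4 against 4.99 and 4.39 CPM, with Hba-a1 and Hbb-b1 at 0, and fibroblast markers to 3.16 and 3.02 against 1.38 and 1.56 CPM, with Dcn and Col3a1 at 0. The part of these markers in the changes below was not tested. In bulk RNA, fewer cells of a type and less RNA per cell cannot be told apart.

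Notch acts on its target genes through the DNA-binding protein RBPJ, and the sequences before the start sites are shown to let its core letters be seen beside the changes. RefSeq (GRCm38.p6) gave windows from 250 bases before to 50 bases after the start for 9 of the 10 genes, 12 windows in all, and none was used for Rasal1. The letters TGGGAA, or TTCCCA on the other strand, occur in a window of Rasal3, Rasa1 and Rasgrp2, 3 of these 9 genes. They occur in 25.6% of all 32851 windows of this length, and 28.3% of the 27025 genes with windows hold them in at least 1. The letters TGAGAA, or TTCTCA on the other strand, occur in a window of Rasa2, and in 20.2% of all windows and 22.8% of the genes. The motifs differ at the third base, so no run of letters matches both. The windows of Rasa3, Rasgrp1, Rapgef1, Rapgef2 and Rapgef6 hold neither. Below are the bases before the start of Rasgrp1, the gene with the largest change among the 10, and of those genes that hold TGGGAA on either strand. Each is printed 5′ to 3′ on the gene's strand, with the matched letters in capitals. The match lies 196 bases before the start in Rasal3, 137 in Rasa1 and 160 in 1 of the 2 windows of Rasgrp2. A match describes the letters only, and these windows are positions on GRCm38.p6 whereas the counts were made on mm9. The study placed RBPJ sites whose binding fell under GSI mostly away from start sites, and most unchanged sites near them. The RBPJ sites it measured in Beko cells were not used here, so neither a match nor its absence tells whether a gene responds to Notch.
Rasgrp1, chr2:117342878-117343127 (GRCm38.p6, minus strand): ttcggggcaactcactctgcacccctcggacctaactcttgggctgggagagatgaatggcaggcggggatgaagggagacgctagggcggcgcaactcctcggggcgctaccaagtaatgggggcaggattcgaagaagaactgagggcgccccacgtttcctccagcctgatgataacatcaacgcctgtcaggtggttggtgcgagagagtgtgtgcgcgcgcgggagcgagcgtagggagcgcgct
Rasal3, chr17:32403583-32403832 (GRCm38.p6, minus strand): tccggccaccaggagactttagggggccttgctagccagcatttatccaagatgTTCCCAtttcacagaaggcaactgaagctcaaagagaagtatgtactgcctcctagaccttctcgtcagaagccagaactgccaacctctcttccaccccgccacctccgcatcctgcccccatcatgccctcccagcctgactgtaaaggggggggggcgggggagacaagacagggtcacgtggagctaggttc
Rasa1, chr13:85289487-85289736 (GRCm38.p6, minus strand): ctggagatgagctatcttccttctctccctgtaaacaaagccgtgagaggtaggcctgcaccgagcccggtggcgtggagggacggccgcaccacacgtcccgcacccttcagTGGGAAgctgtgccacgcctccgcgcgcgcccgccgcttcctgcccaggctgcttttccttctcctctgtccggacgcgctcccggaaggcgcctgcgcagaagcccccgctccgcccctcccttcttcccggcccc
Rasgrp2, chr19:6401455-6401704 (GRCm38.p6, plus strand): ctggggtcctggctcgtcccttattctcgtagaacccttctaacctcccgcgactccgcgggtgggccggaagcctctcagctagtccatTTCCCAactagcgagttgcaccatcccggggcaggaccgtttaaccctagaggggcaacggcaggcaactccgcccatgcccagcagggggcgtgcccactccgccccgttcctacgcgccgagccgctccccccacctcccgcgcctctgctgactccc

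Rasal1 encodes a calcium-responsive RasGAP with C2 domains. It lies on the plus strand at chr5:121098821-121129606 (mm9), and no gene of GENCODE vM1 overlaps it. Its level was 25.8 and 29.4 CPM under GSI and 73.6 and 93.9 CPM after washout, from 827, 429, 2504 and 1262 counts. Both washout libraries stood well above both GSI libraries. Its log2 fold change was 1.60 (SE 0.149, 95% interval 1.24 to 1.96, edgeR adjusted p = 0.000569), and 1.79% of all genes tested had a higher one. Rasal1 was called higher in each of the 13 alternative fits, with values between 1.40 and 1.96.

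Rasal3 encodes a RasGAP found mainly in blood cells, and it ran in the opposite direction. It lies on the minus strand at chr17:32527604-32540528. Its level was 275 and 300.2 CPM under GSI and 138 and 158 CPM after washout, with no overlap between the groups. Upon washout its log2 fold change was -0.96 (SE 0.114, 95% interval -1.23 to -0.68, edgeR adjusted p = 0.00113), which is just inside the threshold of -1, so Rasal3 was not called at both thresholds. It was called lower with the total count alone (-1.16), without GSI replicate 1 (-1.02) and without washout replicate 2 (-1.06), while correcting for GC content and exon length gave -0.63. Rasal3 shares 528 exon bases with A530088E08Rik on the other strand. The strand setting of the counting is not given in the sources used here, so reads in that overlap are uncertain. A530088E08Rik had 40.2 and 45.2 CPM under GSI and 18.7 and 22.8 CPM after washout, a log2 fold change of -1.05 (edgeR adjusted p = 0.00164).

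Of the remaining RasGAPs, Rasa3 and Rasa1 fell and Rasa2 did not pass the test. Rasa3, a GAP of the GAP1 family that also acts on Rap, lies at chr8:13566950-13677603. Its level was 83.3 and 73.6 CPM under GSI and 53.3 and 50.7 CPM after washout. The washout libraries were close to each other and both below the GSI libraries. Its log2 fold change was -0.59 (SE 0.104, edgeR adjusted p = 0.00439). The adjusted p of Rasa3 stayed under 0.05 in all 13 alternative fits, with log2 fold changes between -0.79 (total count) and -0.36 (GC and length correction).

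Rasa1 encodes p120 RasGAP, which binds phosphorylated receptors through SH2 domains. It lies at chr13:85354304-85429091 and shares 12 exon bases with Ccnh on the other strand, which did not pass the test (0.17, edgeR adjusted p = 0.321). Its level was 158 and 129.9 CPM under GSI and 114 and 94.4 CPM after washout. Within each group replicate 1 was the higher library, and the gap between the groups was smaller than the gap between the GSI libraries. The change amounted to -0.47 on the log2 scale (SE 0.140, edgeR adjusted p = 0.0312), and edgeR gave an adjusted p of 0.174 without GSI replicate 1 and of 0.0785 without washout replicate 2. Rasa2, another GAP1 family member at chr9:96439719-96532036, had 58.8 and 58.6 CPM under GSI and 48.4 and 52.0 CPM after washout. Its groups did not overlap, but the log2 fold change was only -0.23 (95% interval -0.46 to 0.00, edgeR adjusted p = 0.0872). With the total count it was -0.43 (edgeR adjusted p = 0.0106).

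The reads of the 5 RasGAPs together came to 601 and 592 CPM under GSI and to 427 and 449 CPM after washout, a ratio of the group means of 0.734. Rasal1 held 4.30% and 4.97% of these reads in GSI and 17.2% and 20.9% upon washout, and Rasal3 held 45.7% and 50.7% against 32.3% and 35.2%. Reads of Rasal1 were 0.0941 and 0.0979 times those of Rasal3 in GSI and 0.534 and 0.593 times upon washout, a ratio chosen after the values were seen. For each of these measures the groups did not overlap, and an exact two-sided permutation test gave p = 0.333, the smallest that 2 against 2 libraries allow. The shares of Rasa1, Rasa2 and Rasa3 lay between 9.78% and 26.6% in every library.

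**Figure D2:**
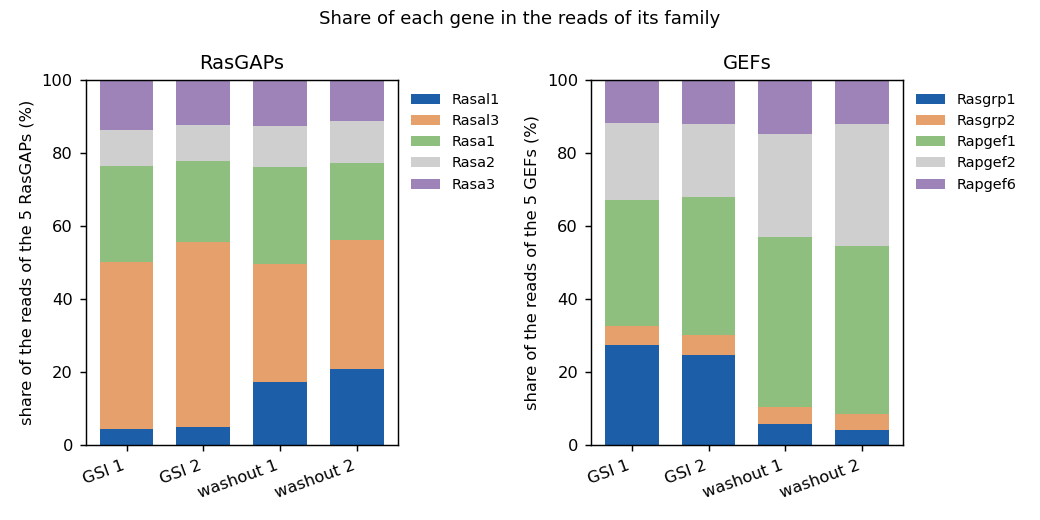
Share of each gene in the summed reads of the 5 RasGAPs (left) and of the 5 GEFs (right), in percent, with 1 stacked bar for each library. The Rasal1 segment widens from 4.30% and 4.97% in GSI to 17.2% and 20.9% upon washout, and the Rasgrp1 segment shrinks from 27.5% and 24.8% to 5.88% and 4.05%.

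Rasgrp1 encodes the GEF that carries diacylglycerol signals from the antigen receptor to Ras in thymocytes and T cells. It lies on the minus strand at chr2:117105729-117168737, and no annotated gene overlaps it. Its level was 159.9 and 137 CPM under GSI and 30.0 and 23.1 CPM after washout, from 5117, 2002, 1020 and 311 counts. Even the higher washout library lay far below the lower GSI library. The log2 fold change was -2.47 (SE 0.155, 95% interval -2.85 to -2.10, edgeR adjusted p = 0.000315), and 1.85% of all genes tested had a lower one. Rasgrp1 was called lower in each of the 13 alternative fits, with values between -2.68 and -2.31.

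Rasgrp2, a calcium- and diacylglycerol-responsive GEF that acts mainly on Rap and is best known from platelets, had a smaller log2 fold change. It lies at chr19:6399340-6415216 and shares 265 exon bases with Gm14965 on the other strand. Its level was 30.0 CPM in both GSI libraries and 22.7 and 24.8 CPM after washout. The log2 fold change was -0.34 (SE 0.113, edgeR adjusted p = 0.0441). Leaving out 1 library, edgeR gave an adjusted p of 0.181 without GSI replicate 1, of 0.163 without GSI replicate 2, of 0.175 without washout replicate 1 and of 0.0479 without washout replicate 2. Its direction depended on the processing, as after the GC and length correction it was 0.14 (edgeR adjusted p = 0.258), and DESeq2 gave an adjusted p of 0.156 without that correction. Reads of Rasgrp1 were 5.33 and 4.57 times those of Rasgrp2 in GSI and 1.32 and 0.934 times upon washout. The GSI ratios stood above both washout ratios, with p = 0.333 from the exact two-sided permutation test, the smallest it can give here.

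Rapgef1, Rapgef2 and Rapgef6 encode GEFs of Rap, the first recruited by Crk adaptors, the others known as PDZ-GEFs. Of these Rapgef2 rose. It lies at chr3:78866438-78985262, and its level was 122 and 110.3 CPM under GSI and 144 and 192 CPM after washout. The washout libraries were further apart from each other than washout replicate 1 was from GSI replicate 1. The log2 fold change was 0.53 (SE 0.152, 95% interval 0.16 to 0.89, edgeR adjusted p = 0.0276). Without washout replicate 2 it was 0.31 (edgeR adjusted p = 0.0655). The adjusted p from edgeR was also above 0.05 without GSI replicate 1 (0.0582) and without GSI replicate 2 (0.116), and it was under 0.05 in 9 of the 13 alternative fits.

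Rapgef1, at chr2:29475240-29596498, had 201 and 209 CPM under GSI and 238 and 263 CPM after washout. Its groups did not overlap, with a log2 fold change of 0.29 (SE 0.101, 95% interval 0.05 to 0.54) and an edgeR adjusted p of 0.0511. This value depended on the scaling and on single libraries. It was 0.09 with the total count (edgeR adjusted p = 0.464) and 0.74 after the GC and length correction (edgeR adjusted p = 0.000464), and without washout replicate 1 it was 0.37 (edgeR adjusted p = 0.0375). Rapgef1 shares 327 exon bases with the pseudogene Gm9823 on the other strand. Rapgef6, at chr11:54336349-54512787, had 69.0 and 67.1 CPM under GSI and 75.0 and 68.7 CPM after washout, and its groups overlapped. Its log2 fold change was 0.08 (95% interval -0.15 to 0.31, edgeR adjusted p = 0.515), -0.12 with the total count and 0.28 after the GC and length correction (edgeR adjusted p = 0.0180).

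**Figure D3:**
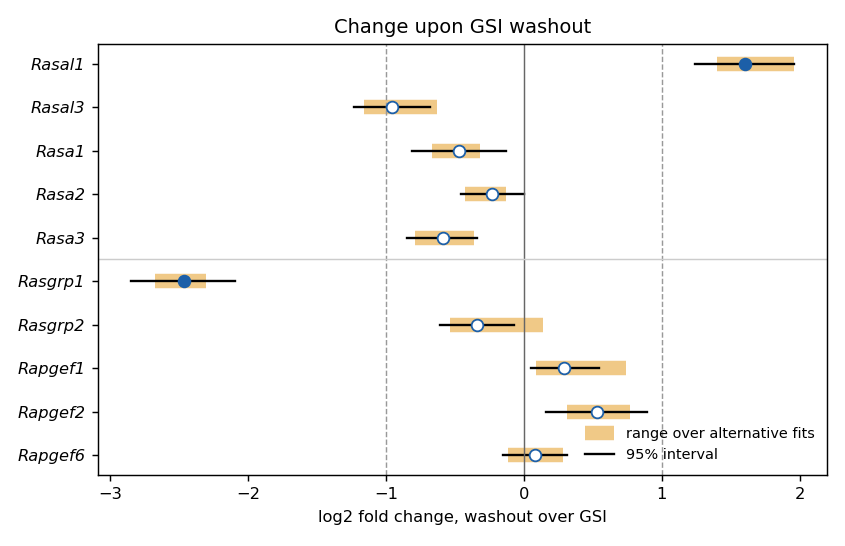
log2 fold change of each gene, washout over GSI, from edgeR's quasi-likelihood test, with its 95% interval as a black line and the range over the 13 alternative fits as an orange bar. Filled points passed both thresholds, open points did not, and dashed lines mark log2 fold changes of -1 and 1. Rasal1 (1.60) and Rasgrp1 (-2.47) lie beyond the dashed lines with all their alternative values, Rasal3 (-0.96) straddles the line at -1, and the ranges of Rasgrp2 and Rapgef6 cross 0.

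In sum over the 5 GEFs the reads came to 582 and 553 CPM under GSI and to 509.5 and 571 CPM after washout. The groups overlapped on this measure (ratio of the means 0.952), and the exact two-sided permutation test gave p = 0.667. Summed per kilobase of exon, the 5 GEFs had 72.3 and 68.3 under GSI and 55.6 and 60.9 after washout. On that measure the groups did not overlap (ratio of the means 0.828, p = 0.333 from the same permutation test). The overlap of the summed levels thus depended on the measure. Rasgrp1 held 27.5% and 24.8% of the GEF reads in GSI and 5.88% and 4.05% upon washout. Rapgef1 went from 34.5% and 37.7% to 46.7% and 46.0%, and Rapgef2 from 21.0% and 19.9% to 28.2% and 33.5%. The group means of the Rapgef2 share were 20.4% ± 0.713 and 30.9% ± 3.75 (SD, n = 2).

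The scale matters for the small changes. With the total count in place of TMM factors the median log2 fold change of all genes tested shifted by -0.2, to -0.209, and relative to that median Rapgef6 (-0.12) still lay above it. The changes also ran with GC content across all genes, with a median log2 fold change of 0.122 over the 2741 genes lowest in GC content and of -0.212 over the 2741 highest. Exons of Rasal1 had 60.8% GC, the highest of the 10, followed by Rapgef1 (56.5%), Rasal3 (55.9%), Rasa3 (53.1%), Rasgrp2 (52.6%), Rasgrp1 (46.9%), Rapgef2 (44.3%), Rapgef6 (42.2%), Rasa2 (40.2%) and Rasa1 (39.1%). The part of GC content in these changes was not tested beyond the correction.

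To set the genes against each other, levels were divided by exon length (RPKM, here TMM-scaled CPM per kilobase). Lengths came from GENCODE vM1, whereas the authors counted reads with another annotation, so the exons may differ. In GSI the highest was Rasal3 at 56.1 and 61.3 RPKM. Rasgrp1 (28.6 and 24.5 RPKM) and Rapgef1 (27.2 and 28.2 RPKM) came next and overlapped each other. Rasa1 (20.2 and 16.6 RPKM) and Rasa3 (16.4 and 14.5 RPKM) followed in both libraries. Rapgef2 (8.84 and 8.01 RPKM) and Rasal1 (7.30 and 8.31 RPKM) could not be ordered, and below them lay Rasa2 (6.61 and 6.60 RPKM), Rapgef6 (5.29 and 5.14 RPKM) and Rasgrp2 (2.42 in both).

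Upon washout Rapgef1 was the highest in both libraries (32.2 and 35.6 RPKM), with a range that met that of Rasal3 (28.2 and 32.3 RPKM). Rasal1 came next at 20.8 and 26.5 RPKM, above all the remaining genes. Rasa1 (14.5 and 12.1 RPKM) and Rapgef2 (10.4 and 13.9 RPKM) overlapped, as did Rapgef2 and Rasa3 (10.5 and 9.95 RPKM). Rasgrp1 had dropped to 5.35 and 4.13 RPKM, place 9 in both libraries, overlapping Rapgef6 (5.75 and 5.26 RPKM) but not Rasa2 (5.45 and 5.85 RPKM). Rasgrp2 stayed last at 1.84 and 2.00 RPKM. The order depends on the length used. Per coding length Rasal1 was in place 10 in both GSI libraries and in places 5 and 4 upon washout, and Rasgrp2, whose exons add up to 12384 bases over 24 annotated transcripts, was in place 8 in both GSI libraries.

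Of 10 close relatives of these genes, 7 were tested, of which 5 fell at the adjusted p alone, where 25.4% of all genes tested were lower. Rapgef3 encodes Epac1, the cAMP-activated GEF of Rap. Its level was 392 and 386 CPM under GSI and 78.6 and 81.9 CPM after washout, a log2 fold change of -2.28 (edgeR adjusted p = 0.000281). Rapgef3 shares 236 exon bases with Gm16257 and 351 with Gm16256, both on the other strand. Rasgrp4, a relative of Rasgrp1 known from mast cells, had 51.6 and 51.1 CPM under GSI and 23.6 and 25.0 CPM after washout (-1.08, edgeR adjusted p = 0.000584). After the GC and length correction its log2 fold change was -0.74, inside the threshold. Cpa3, the only mast cell marker tested, was also lower upon washout (-4.30), and a link to Rasgrp4 was not tested. Rasgrp4 shares 977 exon bases with Fam98c on the other strand. Of the reads of Rasgrp1, Rasgrp2 and Rasgrp4 together, Rasgrp1 held 66.2% and 62.8% in GSI and 39.3% and 31.7% upon washout. Rasgrp3, Rapgef5 and Rasal2 had 3 counts or fewer in every library and were not tested.

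Sos2, a Ras GEF brought to the membrane by Grb2, fell by 0.54 on the log2 scale (edgeR adjusted p = 0.00430), and its relative Sos1 had -0.26 (edgeR adjusted p = 0.106). Nf1, the RasGAP neurofibromin, had 92.3 and 99.9 CPM under GSI and 57.5 and 57.4 CPM after washout (-0.74, edgeR adjusted p = 0.00135). Rasa4, the calcium-responsive GAP1 relative of Rasal1, was called lower (-1.44, edgeR adjusted p = 0.00536), opposite in sign to Rasal1. Rapgef4, the second Epac gene, had -0.51 (edgeR adjusted p = 0.0782). On the other strand Rasa4 shares 182 exon bases with Gm15701, and Rapgef4 shares 337 with BB114351.

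The rest of the pathway was described with 5 lists, whose GEFs, GAPs and GTPases also included those of Ral, a related small GTPase. The lists held 77 genes, 65 of which could be tested. Of these 1 was called higher and 10 lower, where 7.74% and 11.7% of all genes tested were called. Over the 65 pathway genes the median was -0.29 on the log2 scale (-0.49 with the total count, which moved the median of all genes tested to -0.209). After the GC and length correction the pathway median was -0.19, with 1 gene called higher and 8 lower. Without that correction, the adjusted p alone gave 5 higher and 28 lower, where 27.0% of all genes tested were higher and 25.4% lower. Of the other GEFs 11 of 20 were tested, and 3 were called lower (Rapgef3, Rasgrp4 and Rapgefl1), with a median of -0.53. Of the other GAPs 14 of 15 were tested, and 3 were called lower, among them Rasa4 and Rap1gap, with a median of -0.58 that was -0.24 after the GC and length correction. Rap1gap, a GAP of Rap, had 10.4 and 6.03 CPM under GSI and 2.97 and 1.49 CPM after washout (-1.82, edgeR adjusted p = 0.0106), and was not called without GSI replicate 1 (edgeR adjusted p = 0.0520).

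Of the GTPases themselves 12 of 13 were tested, and 1 was called lower. Their median was -0.12, but it was 0.10 without GSI replicate 1 and 0.14 without washout replicate 2. The lower gene was Rras, at 2.44 and 2.54 CPM under GSI and 0.734 and 0.521 CPM after washout (-1.91, edgeR adjusted p = 0.00458). At the adjusted p alone Hras (0.47, edgeR 0.00767) and Nras (0.46, edgeR 0.00962) were higher. Of the upstream adaptors and diacylglycerol enzymes 12 of 13 were tested, and 2 were called lower (Dgka and Dok2), with a median of -0.20 that was -0.07 after the GC and length correction and -0.40 with the total count. Dok2 (-1.10) was inside the threshold after that correction (-0.91) and without washout replicate 1 (-0.97), which left 1 call. Dgka encodes a kinase that removes the diacylglycerol on which RasGRP proteins depend. Its level was 103 and 97.1 CPM under GSI and 29.1 and 38.1 CPM after washout (-1.58, edgeR adjusted p = 0.000548), so both Rasgrp1 and Dgka were lower after washout. Dgka shares 98 exon bases with Pmel on the other strand.

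In these 4 lists edgeR and DESeq2 both called 0 genes higher (the GC and length correction with the replicate block called 1 upstream gene), and at an unadjusted p under 0.05 from edgeR 1 of the other GAPs, 2 of the GTPases and 0 of the other GEFs and upstream genes were higher.

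All 16 effectors were tested, 1 was called higher and 1 lower, with a median of -0.15 that was 0.01 after the GC and length correction. Mllt4 encodes afadin, a Ras- and Rap-binding protein of cell junctions, and had 18.0 and 16.9 CPM under GSI and 62.7 and 79.1 CPM after washout (2.01, edgeR adjusted p = 0.000343), but shares 221 exon bases with Tcte2 on the other strand. Pik3cg, a PI3-kinase catalytic subunit that binds Ras, had 99.0 and 129 CPM under GSI and 42.6 and 59.0 CPM after washout (-1.17, edgeR adjusted p = 0.00363). Its call was lost without GSI replicate 2 (-0.97) and without washout replicate 1 (-0.94). In the lists above, Rapgefl1, Rap1gap, Dok2, Hras and Nras were named after their values were seen.

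**Figure D4:**
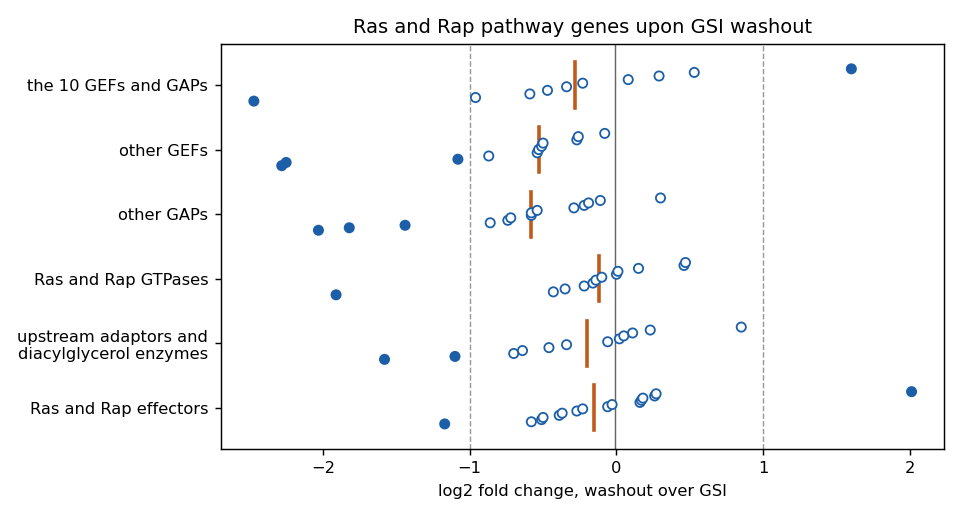
log2 fold change of every tested gene, washout over GSI, for the 10 GEFs and GAPs and for the 5 other lists of the pathway. Each point is a gene (filled where called at both thresholds, placed vertically only for legibility), orange bars mark list medians and dashed lines mark -1 and 1. The medians run from -0.58 (other GAPs) to -0.12 (GTPases, above 0 without GSI replicate 1 or washout replicate 2), and Rasal1 (1.60) and Mllt4 (2.01) are the only genes right of the dashed line at 1.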

How the data were processed

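RNA-Seq counts of 4 libraries were used, 2 of Beko cells in GSI and 2 after washout of GSI, grouped by their treatment labels. The library kit was stranded and depleted ribosomal RNA from total RNA. According to the methods and labels, the authors trimmed their reads, mapped them with HISAT2 2.2.1 to mm9 and used summarizeOverlaps with an iGenomes annotation for counting. The deposited values are raw read counts for 24391 gene symbols, without normalization, and every column was used. The strand setting of the counting is not given in the sources used here. Nothing states that replicates were separate cultures, so p-values measure only the spread between these libraries, which may be technical.

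The groups were tested with edgeR 4.0.16 under R 4.3.3 (filterByExpr, TMM factors, quasi-likelihood test without covariates, Benjamini-Hochberg adjustment over the 12266 genes tested). CPM values were scaled with the TMM factors, and SE was derived as log2 fold change over the root of F. RPKM used the joined exons of GENCODE vM1 on mm9, which matched all 10 genes. Promoter windows came from RefSeq (GRCm38.p6). The alternatives were DESeq2 1.42.0, RLE size factors, the total count, both other count filters, a replicate block, thinning to the smallest library, offsets correcting for GC content and length with and without the block, coding length and each library left out. Genes named from the other lists were the largest called rise and fall of each list and the close relatives of the 10 genes, whatever their values. Some genes of these lists are not reported here. The 10 genes and all lists were chosen with earlier results of these data known.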

Additional observations from a re-analysis of the deposited data

How the results depend on the processing

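Of 130 log2 fold changes of the 10 genes under the 13 alternative fits, 124 kept their direction and their call, for which both thresholds count together. The adjusted p taken alone was under 0.05 in 6 of the 13 for Rasgrp2, 9 for Rapgef2, 11 for Rasa1, 5 for Rapgef1 and 2 each for Rasa2 and Rapgef6, and in all 13 for the other genes. Those of Rasal3 passed the lower threshold with the total count and without GSI replicate 1 or washout replicate 2, so that 2 genes were called lower there (1 to 2 over the libraries left out in turn). Reversed were Rapgef6 with the total count (-0.12) and Rasgrp2 with the GC and length correction (0.14, and 0.13 with the replicate block added). The total count called 586 of all genes higher and 1963 lower, so that 23.0% of the calls were higher in place of 39.8% with TMM factors, 46.6% with the GC and length correction and 45.0% with DESeq2. It gave ratios of washout to GSI of 0.640 for the summed CPM of the RasGAPs and 0.829 for that of the GEFs, and of 0.676 and 0.721 for their summed RPKM. TMM factors gave 0.734 and 0.952 for the CPM sums, and 0.777 and 0.828 for the RPKM sums. With the adjusted p alone, 3315 of all genes were higher and 3120 lower, 2 and 5 of the 10 genes, and 5 and 28 of the other pathway genes. With the GC and length correction and the block, 2 of the other pathway genes were higher. Same-numbered libraries deviated together (correlation 0.497, and 0.615 over genes with a mean log2 CPM of at least 5), but 2 pairs do not show a pairing. Replicate 1 was the deeper library of each group, with 29671401 counts in GSI and 36364200 upon washout. Replicate 2 had 13716199 and 14451995, so replicate number and depth cannot be told apart. The replicate block called 981 genes higher and 1576 lower, and 1 and 1 of the 10 genes. At the adjusted p alone it gave 3 higher and 6 lower of the 10. Leaving out a library leaves 1 in its group, which is assumed to vary like the other group. The cause of these shifts was not tested. Thinning all libraries to the smallest still called 1 of the 10 genes higher and 1 lower, and other effects of depth were not tested. Changes of the size of that of Rasa2 (-0.23) had intervals reaching 0.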
